A study of Mus musculus with 52 samples.

Results

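Wdr34 clone 1 is a line of Cilia-APEX-IMCD3 cells, a mouse inner medullary collecting duct line in which a peroxidase tag is targeted to the primary cilium, edited at Wdr34 and labelled as a homozygous mutant. Its 4 RNA libraries from ciliated cells were chosen by the sample labels and compared with the 16 libraries of the 4 ciliated control clones D8, H12, A4 and G7, which are 20 of the 52 libraries of the series. The edited line was grown from a single sorted cell after transfection with the cytosine base editor BE4-Gam, which turns C into T without cutting both strands, and with the guide plasmid BPK1520. Control clones received BE4-Gam and BPK1520 with no targeting oligo, so that control and mutant clones shared the editor, the sorting and the parental line. The labels give no allele for clone 1, and the study made Wdr34 lines with p.Arg183Trp and with p.Gly394Ser. The label of each library says whether its cells were ciliated. By the study's methods cilia were grown over 50 h in 0.2% serum, a condition that the labels do not carry, since they name 10% serum throughout. Each clone has 4 technical replicate libraries, so the p-values below measure the spread between libraries of 1 mutant clone and of 4 control clones. An effect of the Wdr34 edit and a difference between clones cannot be told apart in this comparison of 1 clone with 4, and over clones an exact permutation test could not give a p under 0.2.

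WDR34 and WDR60 are the intermediate chains of dynein-2, the motor that carries intraflagellar transport trains from the tip of the cilium back to its base. The heavy chain DYNC2H1 holds the motor domain and the light intermediate chain DYNC2LI1 stabilises it. In kidney epithelium the primary cilium is a single sensory organelle, and in many cells hedgehog signalling depends on the traffic of its receptors through the cilium.

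The guide sites of the study's 2 Wdr34 edits are shown because they say where in the gene the base editor was directed, with the PAM, the short motif that Cas9 needs beside its target, in capitals.
p.Arg183Trp: tggtcggtgagtgagagctTGG
p.Gly394Ser: gggccaccatggggagagaAGG
The p.Gly394Ser guide matched chr2:30032435-30032456 (GRCm38) in coding exon 7 of the 9 exons of the Wdr34 transcript, on the strand opposite to the coding sequence. The p.Arg183Trp guide had no whole match in the spliced transcript and was not placed here. Which of these sites is changed in clone 1 cannot be read from counts per gene.

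Total counts were 15493164 to 17436097 in clone 1 and 14816218 to 28084979 in the controls, so 1 CPM (count per 1000000 counts, scaled by TMM factors) stands for 14.8 to 28.1 counts. Clone 1 libraries detected 13769 to 13841 genes and control libraries 13476 to 14358. Control clone G7 stood apart from the other clones before any comparison with the mutant. The summed level of 6 epithelial markers was 137 to 156 CPM in G7, 3090 to 3310 in clone 1, 4220 to 4470 in D8, 2730 to 2850 in H12 and 3690 to 4860 in A4. E-cadherin (Cdh1) averaged 14.7 CPM in G7 and 615 in clone 1. The mesenchymal filament gene Vim averaged 152 CPM in G7, 4.56 in clone 1, 31.3 in D8, 18.4 in H12 and 3.55 in A4. Other mesenchymal markers were mixed in G7. Zeb1 averaged 72.0 CPM there and 1.01 in clone 1, but Fn1 averaged 512 and 544, Itga5 14.2 and 21.3, and Col1a1 0.349 and 2.29. The 10 proximal tubule markers summed to 319 to 560 CPM in G7, against 15.7 to 17.7 in clone 1 and 17.0 to 37.9 in the other controls. Nearly all of that sum was 1 gene, the endocytic receptor gene Lrp2, which averaged 456 CPM in G7 and 14.1 in clone 1, while 7 of the 10 markers, among them Slc34a1 and Hnf4a, were under 0.5 CPM in every library. The counts of calls over all genes are therefore given with and without G7, and so are many of the fold changes and list counts. Of the collecting duct principal cell markers, Aqp2, Aqp4, Avpr2, Scnn1b and Elf5 stayed under 0.5 CPM in every library, and the 10 markers summed to 4.92 to 6.68 CPM in clone 1 and 3.18 to 15.7 in controls. Of 8 fibroblast markers 6 were under 0.5 CPM in every library, among them Pdgfra and Pdgfrb, and the list summed to 1.68 to 3.28 CPM in clone 1 and 1.07 to 3.16 in controls. Of 8 endothelial markers 5 were, among them Pecam1 and Cdh5, with sums of 2.13 to 3.60 and 1.38 to 6.23 CPM. Of 9 macrophage and leukocyte markers 5 were, among them Adgre1 and Tyrobp, but the list summed to 264 to 279 CPM in clone 1 and 170 to 326 in controls, most of it from Csf1r (241 to 253 CPM against 139 to 315) and Cd14 (20.8 to 24.2 against 9.55 to 28.3).

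Both edits exchange an amino acid, so the RNA level of Wdr34 does not check the label of the clone. Wdr34 (chr2:30031551-30048879) had 40.3, 51.2, 49.5 and 47.1 CPM in the 4 clone 1 libraries, against 26.2 to 50.1 with a median of 42.6 in the 16 control libraries. The ranges overlapped, and the test found a log2 fold change of 0.20 (SE 0.14, adjusted p = 0.51 by edgeR's quasi-likelihood test with Benjamini-Hochberg adjustment). For its partner Wdr60 the log2 fold change was -0.13 (adjusted p = 0.473), and for Dync2li1 it was -0.03 (adjusted p = 0.943). Dync2h1 had 18.7, 22.8, 17.9 and 20.6 CPM against 21.2 to 32.0 with a median of 26.0, a log2 fold change of -0.43 (SE 0.11, adjusted p = 0.0471) that is under the size limit of 1 used for calls. Among 9 measured dynein-2 genes, the light chain gene Dynll1 was the other one with an adjusted p under 0.05, at 242 to 257 CPM against 161 to 223 and a log2 fold change of 0.35 (SE 0.07, adjusted p = 0.0103). None of these 9 genes was called, and none of 28 measured intraflagellar transport genes had an adjusted p under 0.05 by edgeR. An unadjusted p under 0.05 was found for 2 of the 28, beside 2028 of the 12380 genes tested. Ttc30a1, named after its values were seen, was called higher when H12 was left out, beside 100 of 12227 genes called higher in that fit.

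In ciliated clone 1, 27 of 12380 tested genes were higher than in the controls (0.218%) and 57 were lower (0.460%), at an adjusted p under 0.05 and a change of at least 2-fold. Changes of at least 4-fold made up 13 of the higher and 31 of the lower genes. These calls take the libraries as replicates: voomLmFit, a limma fit with the clone as a block, called 1 higher and 0 lower genes. Independently of the test, all 4 clone 1 libraries lay above all 16 control libraries for 228 genes (1.84%) and below them for 173 (1.40%), and 25 and 42 of these were called. The remaining 2 higher and 15 lower genes overlapped with at least 1 control library. Without G7, 63 genes were called higher (0.514% of 12263 tested) and 214 lower (1.75%). Of the 84 genes called against all controls, 23 higher and 54 lower were called again without G7, and no gene changed direction. The 7 that were not were Gper1, Zfp608, Nupr1, Spata13, Focad, Gsap and Itga7, all but Zfp608 named here after their values were seen. Their log2 fold changes without G7 were 0.82 to 0.99 for the higher and -0.86 to -0.98 for the lower genes. Many calls depended on single clone 1 libraries. Of 49 called genes named by the rule used here, 17 stayed called whichever 1 of the 20 libraries was left out. The other 32 lost their call when at least 1 of the clone 1 libraries was left out, and 23 of these lost it whichever of the 4 was left out. The adjusted p was then at most 0.193, and no gene changed direction.

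**Figure D1:**
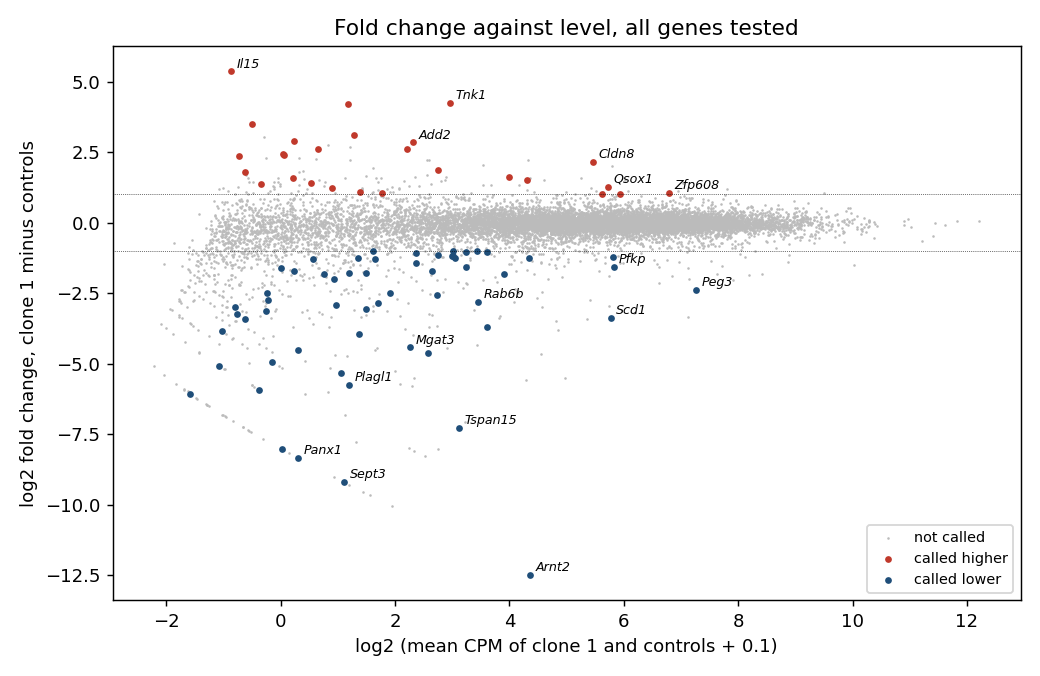
Log2 fold change of ciliated Wdr34 clone 1 over the 16 control libraries against mean expression in log2 CPM for the genes tested, 1 point a gene, with called genes in colour. The 27 higher and 57 lower genes are few among 12380, and the largest changes are towards lower values in clone 1. Fitted values of genes with no count in clone 1 depend on the prior count and are no measure of size.

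Genes of epithelial junctions and membranes were among the higher genes. Cldn8, a claudin of tight junctions in the collecting duct, had 66.8, 78.0, 71.8 and 71.6 CPM in clone 1 and 1.28 to 31.7 with a median of 16.7 in the controls. Every clone 1 library lay above every control library, and the log2 fold change was 2.17 (SE 0.55, adjusted p = 0.0402) with G7, where the mean was 1.77 CPM, and 1.79 (adjusted p = 3.09e-05) without it. With 3 of the 4 clone 1 libraries the adjusted p of Cldn8 was 0.111 to 0.144. Cldn8 was also the single call among 27 measured genes of collecting duct transport, beside 0.218% of all genes called higher. Of the 27, 20 had a negative value, with a median of -0.24, and without G7 the median was -0.25. Hpn, which encodes the membrane serine protease hepsin, had 7.69, 8.47, 7.54 and 7.40 CPM against 0 to 2.60 with a median of 1.42. The groups were again apart (log2 fold change 2.60, SE 0.68, adjusted p = 0.0476, and 2.20 without G7, adjusted p = 5.5e-05). Tspan1, a tetraspanin of epithelial membranes, had 1.18, 2.09, 1.52 and 1.63 CPM against 0.104 to 1.14 with a median of 0.436, so that its lowest clone 1 library was close to the highest control (log2 fold change 1.59, SE 0.38, adjusted p = 0.0279, and 1.36 without G7, adjusted p = 0.00982). These 3 were the called genes among 31 measured epithelial markers, beside 0.218% of all genes called higher. The list's median log2 fold change was 0.38 with G7 and 0.03 without it, beside -0.05 over all genes tested. None of the 3 was called when D8 was left out, Cldn8 and Hpn were not called when A4 was left out, and Hpn was not called when H12 was left out. In bulk RNA, fewer cells that express a gene and less RNA in each cell cannot be told apart.

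Tetraspanins, a family of membrane scaffold proteins with 4 membrane spans, moved in both directions. Tspan15, which directs the protease ADAM10 to the cell surface, had 0.112, 0.126, 0.122 and 0.0561 CPM in clone 1 against 0.870 to 65.0 with a median of 5.39 in the controls. Every clone 1 library lay below every control, and the control clones themselves ranged from a mean of 1.0 CPM in A4 to 55.9 in G7. The log2 fold change was -7.27 (SE 1.86, adjusted p = 0.0431) with G7 and -5.19 (adjusted p = 0.0046) without it. Tspan18 had 6.79, 7.46, 5.83 and 6.11 CPM against 12.4 to 51.4 with a median of 14.9 and also lay below all controls (log2 fold change -1.82, SE 0.47, adjusted p = 0.0473, and -2.01 without G7, adjusted p = 0.0145). D8 held the highest Tspan18 values, with a mean of 48.3 CPM. Tspan5, Tspan9, Tspan12 and Tspan33, named here after their values were seen, were above every control library but under the 2-fold limit. Of these, Tspan9 (171 to 195 CPM against 113 to 149, log2 fold change 0.51, adjusted p = 0.000112), Tspan12 (0.76, adjusted p = 0.00355) and Tspan33 (0.93, adjusted p = 0.0135) had an adjusted p under 0.05 and Tspan5 did not (0.46, adjusted p = 0.0919). An adjusted p under 0.05 with a higher value was found for 4 of 15 measured tetraspanins, beside 0.937% of all genes, and 5 of the 15 lay above every control library and 2 below, beside 1.84% and 1.40% of all genes. Tspan33 was called higher when A4 or G7 was left out, beside 37 of 12305 and 63 of 12263 genes called higher in these fits.

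Single genes of the membrane skeleton, junctions and transport were also higher. Add2, which encodes a spectrin-binding adducin of the membrane skeleton, had 8.75, 8.66, 8.57 and 8.24 CPM in clone 1 against 0 to 2.80 with a median of 1.21. The 4 libraries were close to each other and apart from the controls (log2 fold change 2.85, SE 0.59, adjusted p = 0.0124, and 2.47 without G7, adjusted p = 7.03e-06). Pvrl1, the adherens junction protein nectin-1, named after its values were seen, had 3.82, 3.35, 4.98 and 4.26 CPM against 0 to 0.797 with a median of 0.132 (log2 fold change 4.22, SE 0.67, adjusted p = 0.00174, and 3.80 without G7, adjusted p = 0.000144). Among 183 measured solute carriers 111 had a negative value and the median was -0.07, and 2 were called, both higher, beside 0.218% of all genes: the mitochondrial carrier Slc25a45 (1.96 to 2.92 CPM against 0.0615 to 1.04, log2 fold change 2.60, adjusted p = 0.00355) and Slc22a15 (3.65 to 5.10 against 1.38 to 3.16, log2 fold change 1.05, adjusted p = 0.00664). Without G7 these 2 were called again, with Slc38a3 and Slc41a2 higher and Slc20a1 lower, beside 0.514% and 1.75% of all genes. The cation channel gene Trpv2 had 2.24, 1.39, 2.25 and 1.96 CPM against 0.249 to 1.15 (log2 fold change 1.40, adjusted p = 0.0167). Car2, a carbonic anhydrase of intercalated cells named here after its values were seen, lay above every control (33.6 to 39.1 CPM against 14.5 to 28.0) at a log2 fold change of 0.88 (SE 0.11, adjusted p = 0.000157), under the size limit. The 6 intercalated cell markers, Car2 among them, summed to 45 to 54.6 CPM in clone 1 and 23.9 to 49.1 in controls. Of the others, Atp6v1b1, Slc4a1 and Foxi1 were under 0.5 CPM in every library, Atp6v0a4 averaged 12.7 CPM against 12.5, and Slc26a4 had 0.897 to 1.22 against 0.192 to 1.89.

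Tnk1, which encodes a non-receptor tyrosine kinase, was the single gene that voomLmFit, a limma fit with the clone as a block, also called, and it was named after its values were seen. It was not called when the libraries of each clone were summed. Its clone 1 libraries had 18.1, 11.6, 14.4 and 14.6 CPM, and the controls had 0.0694 to 1.85 with a median of 0.763. The lowest clone 1 library stood above the highest control by a wide margin (log2 fold change 4.26, SE 0.51, adjusted p = 0.000102, and 3.90 without G7, adjusted p = 3.91e-06). Tnk1 lies at chr11:69850563-69858730, and the 250 bases before its annotated start are shown as the sequence next to this gene, with each CG pair in capitals (RefSeq, GRCm38.p6).
Tnk1, chr11:69858731-69858980, minus strand: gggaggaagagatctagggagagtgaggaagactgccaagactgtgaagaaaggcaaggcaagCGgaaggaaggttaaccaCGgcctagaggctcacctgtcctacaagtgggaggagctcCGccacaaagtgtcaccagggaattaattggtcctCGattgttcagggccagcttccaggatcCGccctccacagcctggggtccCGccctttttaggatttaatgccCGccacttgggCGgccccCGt
The stretch holds 9 CG pairs and no measurement here bears on its methylation.

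**Figure D2:**
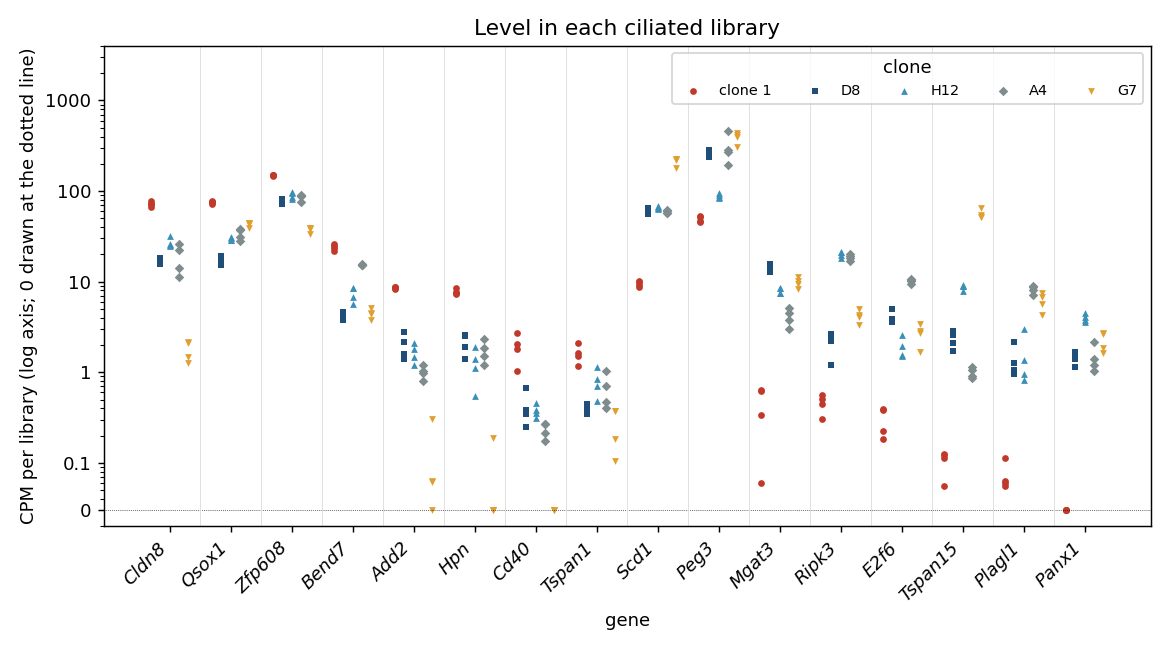
Level of selected genes in CPM on a log axis in each of the 20 ciliated libraries, grouped by clone, 1 point a library, with a count of 0 drawn at the dotted line. Qsox1 and Cldn8 are higher and Scd1, Peg3 and Mgat3 lower in all 4 clone 1 libraries than in all 16 control libraries.

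Of the cytokines, chemokines and their receptors, 3 of 70 measured genes were called, 2 higher and 1 lower, beside 0.218% and 0.460% of all genes. Il15, a cytokine for natural killer and memory T cells, had 0.673, 1.14, 0.972 and 0.729 CPM in clone 1 and 0 to 0.14 in the controls with a median of 0. It was counted in clones D8 and H12 alone among the controls, and the log2 fold change was 5.37 (SE 0.57, adjusted p = 3.29e-05, and 5.04 without G7, adjusted p = 3.8e-05). Cd40, a receptor of the tumour necrosis factor family, had 2.69, 1.83, 1.03 and 2.07 CPM against 0 to 0.665 with a median of 0.270 (log2 fold change 2.88, SE 0.59, adjusted p = 0.0114, and 2.47 without G7, adjusted p = 5.5e-05). Il18bp, a secreted inhibitor of interleukin-18, had 1.85, 2.15, 1.76 and 2.07 CPM against 1.90 to 5.87 with a median of 4.11, so its groups overlapped (log2 fold change -1.01, adjusted p = 0.0484, and -1.07 without G7, adjusted p = 0.0177). Of the 70 genes, 44 had a negative value, with a median of -0.37. Without G7 Tnfsf15 was also called higher, and the further lower calls included Ackr3, Il24, Tnfrsf22, Tnfrsf23 and Tnfsf13b. In that fit 0.514% of all genes were called higher and 1.75% lower. None of 50 interferon-stimulated and antigen presentation genes had an adjusted p under 0.05 by edgeR. An unadjusted p under 0.05 was found for 5 of them, beside 2028 of the 12380 genes tested. Rtp4 was called lower without D8, and Psmb8 without A4 or without G7. Lower calls over all genes were 55 of 12239, 124 of 12305 and 214 of 12263 in these fits.

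Several higher genes act in secretion or in the nucleus. Qsox1, a sulfhydryl oxidase of the Golgi that forms disulfide bonds in secreted proteins, had 75.3, 75.1, 78.2 and 71.3 CPM in clone 1 against 15.4 to 44.9 with a median of 30.9. The groups were apart, with a log2 fold change of 1.28 (SE 0.22, adjusted p = 0.00355), and 1.48 without G7 (adjusted p = 0.000233). Chst9, which adds sulfate to N-acetylgalactosamine, had 1.35, 1.52, 1.34 and 2.19 CPM against 0.0541 to 0.560 (log2 fold change 2.41, adjusted p = 0.000667, and 2.59 without G7, adjusted p = 0.000227). The zinc finger gene Zfp608 had 152, 151, 149 and 146 CPM against 33.3 to 96.7 with a median of 79.0 (log2 fold change 1.05, SE 0.23, adjusted p = 0.0167), and without G7 its log2 fold change of 0.84 was under the limit. Irx1, a homeobox gene of nephron segmentation, had 27.6, 31.2, 29.8 and 28.7 CPM against 3.78 to 19.9 with a median of 10.0 (log2 fold change 1.52, SE 0.32, adjusted p = 0.0147, and 1.40 without G7, adjusted p = 0.0183). Both genes were above every control library. Zfp551 (log2 fold change 1.24, adjusted p = 0.0153) and Bend7 (1.61, adjusted p = 0.0191) also rose, as did Ephx4 (3.49, adjusted p = 0.0139), Fam78b (3.10, adjusted p = 0.0361) and 8430408G22Rik (1.87, adjusted p = 0.0458), and in all 5 the clone 1 libraries lay above every control. The other higher genes were Arxes2, Cysltr1, Henmt1, Nrros, Gper1, Nupr1 and Spata13, at log2 fold changes of up to 2.42, of which Henmt1 and Nrros overlapped with control libraries. Among 296 measured genes with a Zfp symbol, 197 had a positive value, beside 5234 of the 12380 genes tested, and the median was 0.12. Above every control library lay 14 of them and below 1, beside 1.84% and 1.40% of all genes. Without G7 223 of 294 had a positive value, and 36 (12.2%) lay above every remaining control library beside 4.06% of all genes. In that fit 6 were called higher and 2 lower, beside 0.514% and 1.75% of all genes. In the non-ciliated Wdr34 clone 89 of 298 had a positive value, the median was -0.13, and an adjusted p under 0.05 was found for 25 lower and 7 higher genes, beside 5.60% and 5.89% of all genes tested there.

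Among the lower genes, 5 had no count in any clone 1 library, and Arnt2 and Gm8773 among them were named after their values were seen. Panx1, which encodes the ATP-releasing membrane channel pannexin 1 (chr9:15005785-15045478), had 0 counts in all 4 libraries and 1.03 to 4.48 CPM in the controls with a median of 1.78. With 3 counts over the 4 libraries as the floor, it was at least 51.5-fold lower (edgeR adjusted p = 3.78e-05), and every control clone had it. Sept3, a septin known from neurons, was at least 93.3-fold lower, with control means from 0.356 CPM in G7 to 9.63 in H12. Pitx1, a homeobox gene of hindlimb identity, was at least 41.6-fold lower than the mean of all controls, whose clone means ran from 0.436 CPM in D8 to 4.83 in A4. Gm8773 was at least 10.6-fold lower. Arnt2, a bHLH-PAS partner of hypoxia and aryl hydrocarbon type factors, was at least 923-fold lower than the mean of all controls. Its control clones were not alike, with means of 43.1 CPM in D8, 59.0 in A4 and 60.9 in G7 but 0.0815 in H12, so clone 1 overlapped with H12. The sequence before the start of Panx1 is shown as that of the gene with no count in clone 1 and a count in all 16 control libraries that had the smallest adjusted p.
Panx1, chr9:15045479-15045728, minus strand: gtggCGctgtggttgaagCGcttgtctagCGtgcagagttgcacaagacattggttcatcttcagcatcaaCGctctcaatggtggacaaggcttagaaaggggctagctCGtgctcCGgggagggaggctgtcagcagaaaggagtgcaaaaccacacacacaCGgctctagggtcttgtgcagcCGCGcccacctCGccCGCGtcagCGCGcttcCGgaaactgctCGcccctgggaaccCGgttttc
It holds 17 CG pairs. For 4 more genes, of which Ndrg2, Lypd6b and Gatsl3 were named after their values were seen, clone 1 had 1 to 3 counts in all, and the ratio of control to clone 1 was 89.5 (95% counting interval 16.1 to 3540) for Ndrg2, 49.9 (8.96 to 1970) for the synaptic adhesion gene Lrfn1, 35.3 (12.1 to 171) for Lypd6b and 16.7 (5.72 to 81.1) for Gatsl3. These intervals cover counting error only. Clone 1 lay below every control library for Gatsl3, while Ndrg2, Lrfn1 and Lypd6b overlapped with control libraries, and Ndrg2 averaged 0.189 CPM in G7.

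Sterol and fatty acid synthesis genes gave 2 lower calls among 41 measured, beside 0.460% of all genes. Scd1, the stearoyl-CoA desaturase that makes monounsaturated fatty acids, had 10.0, 10.2, 9.18 and 8.80 CPM in clone 1 against 55.8 to 227 with a median of 64.1. Every clone 1 library lay far below every control, G7 was the highest clone with a mean of 213 CPM, and the log2 fold change was -3.38 (SE 0.54, adjusted p = 0.00186) with G7 and -2.69 (adjusted p = 5.75e-13) without it. Far2, which reduces fatty acyl-CoA to alcohols, had 1.12, 1.26, 1.34 and 1.12 CPM against 1.41 to 9.32 with a median of 3.72 (log2 fold change -1.79, SE 0.46, adjusted p = 0.0458, and -1.95 without G7, adjusted p = 0.0124). Of 41 measured genes of the list, 39 had a negative value, the median was -0.47 beside -0.05 over all genes, and 15 (36.6%) lay below every control library beside 1.40% of all genes. An adjusted p under 0.05 was reached by 7 of the 41, all lower, beside 1.26% of all genes, and of these Scd1 and Far2 passed the 2-fold limit. Of those under the limit, named after their values were seen, the sterol sensor partner Insig1 had 201 to 223 CPM against 250 to 652 (log2 fold change -0.99, adjusted p = 0.0239), the squalene synthase gene Fdft1 had a log2 fold change of -0.52 (adjusted p = 0.0351) and the elongase gene Elovl1 one of -0.34 (adjusted p = 0.0167). The genes of the SREBP factors that drive this pathway had log2 fold changes of 0.12 for Srebf1 (adjusted p = 0.672) and -0.24 for Srebf2 (adjusted p = 0.233).

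The list kept its negative median without any 1 control clone. Without G7 17 of the 41 genes had an adjusted p under 0.05, all lower, beside 5.56% of all genes. Below every remaining control library lay 16 (39.0%), beside 3.49% of all genes, and the median was -0.31. Leaving out D8, H12 or A4 gave medians of -0.52, -0.51 and -0.53.

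**Figure D3:**
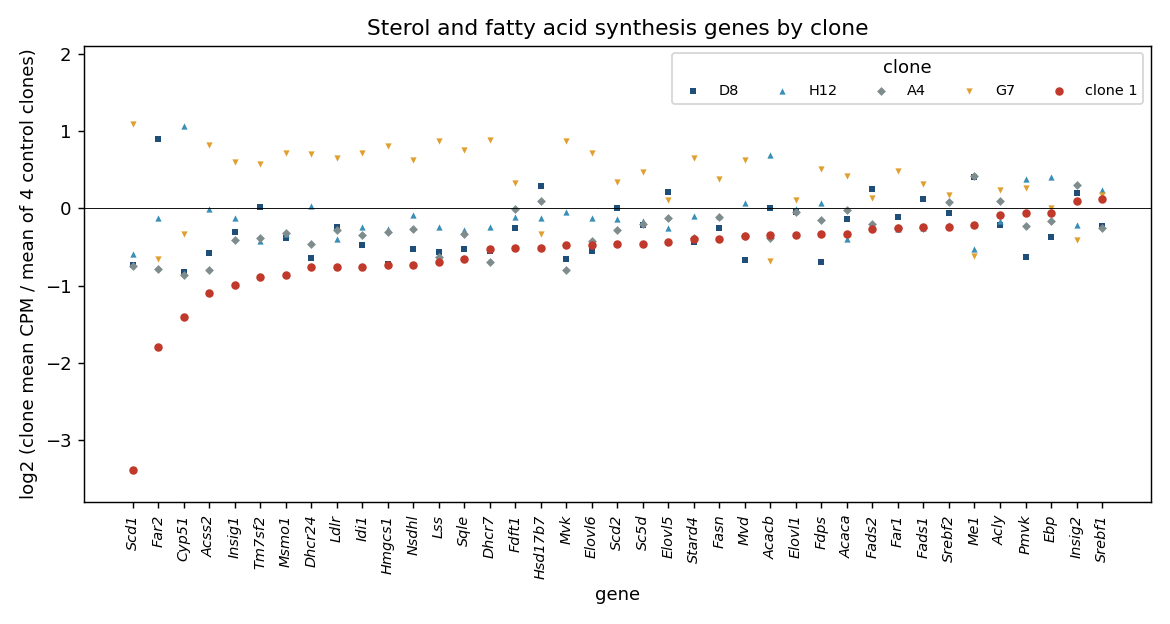
Mean level of the sterol and fatty acid synthesis genes named on the x axis in clone 1 and in each control clone, as the log2 ratio to the mean of the controls (y axis), 1 point a clone. Clone 1 lies below 0 and G7 above it for most of them, and the median of all 41 measured genes of the list against all controls is -0.47.

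Imprinted genes, which are expressed from the allele of 1 parent, gave 3 lower calls among 40 measured, beside 0.460% of all genes. Peg3, a paternally expressed zinc finger gene, had 53.6, 51.5, 46.1 and 47.0 CPM in clone 1 against 83.5 to 464 with a median of 256. Clone 1 was below all controls, of which H12 was the nearest with a mean of 89.0 CPM, and the log2 fold change was -2.38 (SE 0.46, adjusted p = 0.00806) and -2.11 without G7 (adjusted p = 0.00645). Its neighbour Usp29, a deubiquitinase gene that starts 97 bases from Peg3 and runs the other way, had 0.898, 0.759, 1.40 and 0.841 CPM against 1.35 to 6.49 with a median of 3.50. Usp29 overlapped with the controls by 1 library (log2 fold change -1.79, SE 0.44, adjusted p = 0.0333, and -1.70 without G7, adjusted p = 0.0287). Peg3 (chr7:6703892-6730462) and Usp29 (chr7:6730559-6967220) were the single pair of called genes within 100000 bases of each other. Plagl1, a zinc finger gene expressed from the paternal allele, had 0.0561, 0.0632, 0.0608 and 0.112 CPM against 0.816 to 9.08 with a median of 3.63 and lay below every control (log2 fold change -5.75, SE 0.99, adjusted p = 0.00355, and -5.53 without G7, adjusted p = 0.00542). The median over the 40 imprinted genes was -0.23. Leaving out D8 removed the call of Usp29. Leaving out H12 added the calls of Igf2 and Mest, both lower, beside 119 of 12227 genes called lower in that fit. Without G7 the 3 genes were called again, Mkrn3 was called higher beside 0.514% of all genes, and the median was -0.19. The stretches taken at the starts of Peg3 and Usp29 are shown because they overlap: 163 bases, chr7:6730420-6730582, belong to both (RefSeq, GRCm38.p6, CG pairs in capitals). Each stretch reaches into the span of its gene, which ends at 6730462 for Peg3 and begins at 6730559 for Usp29. The shared bases therefore do not all lie between the 2 genes.
Peg3, chr7:6730420-6730669, minus strand: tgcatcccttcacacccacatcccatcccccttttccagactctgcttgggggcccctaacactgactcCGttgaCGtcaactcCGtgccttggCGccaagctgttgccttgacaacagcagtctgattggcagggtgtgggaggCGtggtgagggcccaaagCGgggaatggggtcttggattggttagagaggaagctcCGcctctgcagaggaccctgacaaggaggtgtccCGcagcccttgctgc
Usp29, chr7:6730333-6730582, plus strand: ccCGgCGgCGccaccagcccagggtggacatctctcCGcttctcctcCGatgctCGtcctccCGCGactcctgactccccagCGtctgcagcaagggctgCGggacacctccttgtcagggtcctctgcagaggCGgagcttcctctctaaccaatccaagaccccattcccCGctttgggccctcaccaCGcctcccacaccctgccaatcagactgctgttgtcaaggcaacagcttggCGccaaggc
The first holds 8 CG pairs and the second 14. Allele-specific reads were not measured, so the counts do not say from which allele the RNA came.

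Single genes of sugar chains, vesicle traffic and matrix were lower. Mgat3, which adds the bisecting N-acetylglucosamine to N-glycans, had 0.617, 0.632, 0.0608 and 0.336 CPM in clone 1 against 3.03 to 15.6 with a median of 8.49. It lay below every control (log2 fold change -4.42, SE 0.54, adjusted p = 0.000102, and -4.37 without G7, adjusted p = 0.000223). Of 77 measured glycosyltransferases and sulfotransferases, 37 had a positive and 40 a negative value, the median was -0.04, and Chst9 (higher) and Mgat3 (lower) were called, beside 0.218% and 0.460% of all genes. Without G7 Fut1, St6galnac3 and St8sia2 were called higher as well, and Gcnt1 and St8sia1 lower, beside 0.514% and 1.75% of all genes. Rab6b, a small GTPase of Golgi traffic, had 2.53, 2.78, 2.61 and 2.86 CPM against 10.9 to 28.9 with a median of 19 (log2 fold change -2.81, SE 0.30, adjusted p = 3.29e-05, and -2.57 without G7, adjusted p = 3.91e-06), and the myosin gene Myo5c had 0.168, 0.190, 0 and 0 CPM against 0.602 to 4.94 (log2 fold change -4.51, adjusted p = 0.00356). Both were below every control. They were the calls among 50 measured genes of Golgi coats, golgins and traffic, beside 0.460% of all genes called lower. Of the 50, 27 had a negative value, with a median of -0.03. Without G7 Elmod1 and Zdhhc14 were also called lower, beside 1.75% of all genes. The paper had already named Rab6b, Myo5c, Elmod1 and Zdhhc14 as lower in mutants of this series. The list holds these genes, so its share of calls is no separate evidence about Golgi genes. The thrombospondin gene Thbs3 (6.51 to 8.85 CPM against 11.4 to 22.9, log2 fold change -1.04, adjusted p = 0.00479) and the secreted Angptl2 (0.673 to 0.972 against 2.39 to 12.5, -2.84, adjusted p = 0.00519) were the lower calls among 48 matrix glycoproteins, beside 0.460% of all genes. Of the 48, 37 had a negative value, with a median of -0.45 beside -0.05 over all genes tested. Without G7 the median was -0.26, and Eln was called higher and Spp1 lower in addition, beside 0.514% and 1.75% of all genes. Hpse, the heparanase that cleaves heparan sulfate, had 1.57, 1.64, 1.58 and 1.01 CPM against 2.12 to 4.73 (log2 fold change -1.24, adjusted p = 0.00355). No collagen was called among 17 measured by edgeR, and 4 had an unadjusted p under 0.05, beside 2028 of the 12380 genes tested. Collagen calls appeared when a control clone was left out, all lower: Col6a1 without D8, Col5a1 and Col6a1 without A4, and Col5a1 and Col7a1 without G7. Lower calls over all genes were 55 of 12239, 124 of 12305 and 214 of 12263 in these fits.

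Some genes known from cell contact and neurons were lower. The axon guidance ligand gene Efna2 had 1.46, 2.40, 2.01 and 1.79 CPM against 2.82 to 21.0 with a median of 12.8, just below D8, whose mean was 3.25 CPM (log2 fold change -2.55, SE 0.53, adjusted p = 0.0123, and -2.25 without G7, adjusted p = 0.0101). The presynaptic adhesion gene Nrxn2 had 0.0561, 0.190, 0.365 and 0.168 CPM against 0.665 to 2.36 (log2 fold change -2.74, SE 0.48, adjusted p = 0.00355). With Lrfn1 these were 3 calls among 62 measured genes of synaptic adhesion and axon guidance, all lower, beside 0.460% of all genes, and 38 of the 62 had a negative value with a median of -0.25. Without G7 Sema6a was called higher and Adgrb2, Elfn1, Nptxr, Sema3a and Sema4f lower as well, beside 0.514% and 1.75% of all genes. Outside this list, Jam3, a junctional adhesion molecule, had 0.898, 0.190, 0.425 and 0.785 CPM against 1.10 to 8.87 (log2 fold change -3.05, adjusted p = 0.0195), and the pacemaker channel gene Hcn2 had 0.0561, 0.190, 0 and 0.112 against 0.272 to 1.88 (log2 fold change -3.41, adjusted p = 0.00811). All but Lrfn1 lay below every control library.

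Ripk3, the kinase that carries out necroptosis, had 0.505, 0.443, 0.304 and 0.561 CPM in clone 1 against 1.19 to 21.3 with a median of 11. All 4 libraries were below every control, and the control clones were split, with means of 2.16 CPM in D8 and 4.17 in G7 but 20.2 in H12 and 18.7 in A4 (log2 fold change -4.62, SE 0.93, adjusted p = 0.0103, and -4.89 without G7, adjusted p = 0.00375). E2f6, a repressor of the E2F family, had 0.393, 0.379, 0.182 and 0.224 CPM against 1.53 to 10.8 (log2 fold change -3.96, adjusted p = 0.00355). Fuz, a planar polarity effector needed for cilia, was the single call among 23 measured hedgehog pathway genes, beside 0.460% of all genes called lower. It had 1.74, 2.15, 1.58 and 1.51 CPM against 3.03 to 5.93 with a median of 4.14, below every control, with means of 3.93 to 4.49 CPM in the control clones (log2 fold change -1.30, SE 0.19, adjusted p = 0.000959, and -1.29 without G7, adjusted p = 0.0004). Without G7 Gli1 was called lower as well, beside 1.75% of all genes. Aldh3b1, an aldehyde dehydrogenase, was the single call among 43 genes of Nrf2 and aldehyde detoxification, beside the same 0.460% (4.17 to 5.61 CPM against 6.81 to 19.3, log2 fold change -1.25, adjusted p = 0.00803). Without G7 Nqo1 was called higher and Aldh2 lower in addition, beside 0.514% and 1.75% of all genes.

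Further lower genes below every control library were Zfp536 (log2 fold change -2.48, adjusted p = 0.00355), Zscan18 (-3.12, adjusted p = 0.00355), Ankrd33b (-5.34, adjusted p = 0.0123) and Zan (-2.51, adjusted p = 0.0167). The symbol Mir7-1 names a microRNA hairpin inside Hnrnpk. Its log2 fold change was -1.61 (adjusted p = 0.0442) at 0.336 to 0.561 CPM against 0.624 to 2.87, while Hnrnpk itself had 0.04 (adjusted p = 0.852). Messenger RNA libraries do not measure mature microRNAs, and 58 of the 69 measured symbols of small nucleolar RNAs and microRNAs had a negative value, with a median of -0.59. Without G7 7 of 68 such symbols were called lower, beside 1.75% of all genes. The other lower genes, at log2 fold changes of -3.71 to -1.02, were Focad, Pak3, Plekha6, Gsap, G6pc3, Itga7, Lacc1, Blnk, Lppr3, Cpn1, Iqsec2, Tcf7, Pfkp, Jag2, Rbpms2, Mtrf1, Ttc38, Rnf144a, 3110039I08Rik, B930041F14Rik and Speg. Among them Pak3, Cpn1, Rbpms2, Mtrf1, Rnf144a, B930041F14Rik, the Notch ligand gene Jag2, the Wnt pathway factor gene Tcf7 and Speg overlapped with control libraries, and the phosphofructokinase gene Pfkp had 27.7, 29.0, 27.5 and 29.7 CPM against 43.7 to 128 and did not (log2 fold change -1.57, adjusted p = 0.00241). These genes were named after their values were seen.

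Other lists held no call against all controls. Complement genes had a median of -1.11 over 17 measured genes, serpins -1.44 over 11 and mesenchymal markers -0.51 over 13. Over these 3 lists no gene had an adjusted p under 0.05 by edgeR. An unadjusted p under 0.05 was found for 10, 5 and 6 genes, beside 2028 of the 12380 genes tested. Leaving out a control clone added lower calls to these lists, and the number of lower calls over all genes shifted too. Over all genes it was 55 of 12239 without D8, 119 of 12227 without H12, 124 of 12305 without A4 and 214 of 12263 without G7. Complement gained C1rl, C1s1, C3, C4b and Cfi without H12, C4b without A4 and C3 without G7. The serpins gained Serpinh1 without D8 and Serpinb5, Serpinb8, Serpinb9 and Serpinb9b without G7, and the mesenchymal markers gained Axl without H12 and Vim without A4. Lists of TGF-beta and BMP signalling (40 genes), p53 targets (31 genes) and proliferation (35 genes) held no call by edgeR either. Their medians were -0.27, -0.04 and -0.05. An unadjusted p under 0.05 was found for 11, 6 and 4 of their genes, beside the same 2028 of 12380. Lower calls there were Tgfb2 and Gdf11 without H12, Tgfb2 and Tgfbr3l without A4, Tgfbr3l without G7, Dram1 without D8, and Dram1 and Hrk without G7, while the proliferation list held none in these fits. The genes given as called only when a control clone was left out were named after their values were seen.

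Chromosomes differed little, with an exception. The median log2 fold change of the 604 tested genes of chromosome 3 was 0.26, and it held 2 higher and 1 lower calls. Against single clones, with 0.5 CPM added to each level, the chromosome 3 median of clone 1 was 0.63 against D8, where 477 of 531 genes with a mean of at least 2 CPM were higher in clone 1. It was 0.30 against A4 and 0.29 against G7, and 0.04 against H12. Medians of at least 0.2 in size also stood at 0.47 for chromosome 1 against G7, 0.41 for chromosome 6 against H12, -0.28 for chromosome 4 and -0.27 for chromosome X against H12, and -0.24 for chromosome 19 against D8. The other 72 of 80 medians lay between -0.14 and 0.10. DNA copy number was not measured.

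**Figure D4:**
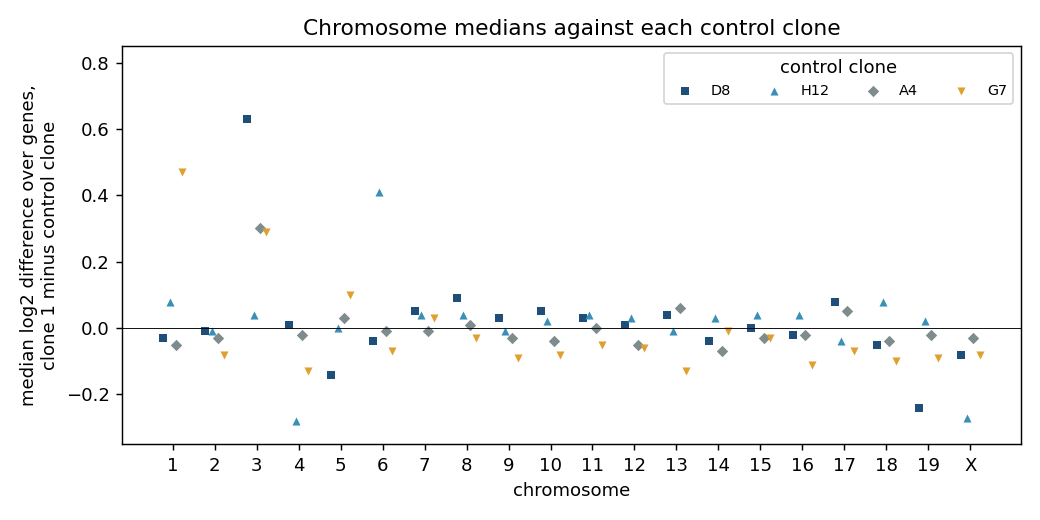
Median log2 difference of clone 1 from each control clone by chromosome, 1 point a clone, over genes with a mean of at least 2 CPM. Chromosome 3 stands at 0.63 against D8, 0.30 against A4, 0.29 against G7 and 0.04 against H12, and most other points are near 0.

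The non-ciliated Wdr34 clone was compared with the 16 non-ciliated control libraries to ask whether the called genes also differed in libraries that the ciliated comparison did not use. By the paper, the p.Gly394Ser line was obtained after the non-ciliated sequencing and was left out of it. The labels do not say whether the non-ciliated Wdr34 clone is clone 1. The states differ in culture as well as in cilia, so the values are set side by side. In that comparison 34 of 12355 genes were called higher (0.275%) and 243 lower (1.97%). Of the 84 genes, 76 were tested there, 69 had the same sign, and 39 were called in the same direction: 6 of 20 higher and 33 of 56 lower genes. None was called in the opposite direction. Panx1 again had no count in any of the 4 Wdr34 libraries against 3.10 to 6.17 CPM in the non-ciliated controls, and Sept3 and Pitx1 had none either, against 0.515 to 9.09 and 0.299 to 19.1 CPM. Arnt2 had 0 to 0.121 CPM against 16.6 to 49.0. Scd1 had 22.7 to 24.5 CPM against 71.6 to 183, and 8 of the 41 sterol and fatty acid genes had an adjusted p under 0.05, all lower, beside 5.60% of all genes. There 12 of the 41 had a positive value, the median was -0.19 and 6 lay below every control library, beside 2.27% of all genes. Peg3 had 131 to 143 CPM against 62.9 to 739 and lay within the control range, and it was called lower there too (log2 fold change -1.72, adjusted p = 0.0143).

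The genes with another sign in non-ciliated cells were mostly higher ones. Cldn8 had 0 to 0.0631 CPM in the non-ciliated Wdr34 clone and 0 to 2.84 in its controls, and Qsox1 had 21.8 to 24.2 CPM against 15.4 to 29.3. The 7 genes with the opposite sign were Cldn8, Tspan1, Qsox1, Gper1, Zfp608, Nupr1 and Focad. In a fit over both states, the difference between the effects had an adjusted p under 0.05 for 8 of the 84 called genes.

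**Figure D5:**
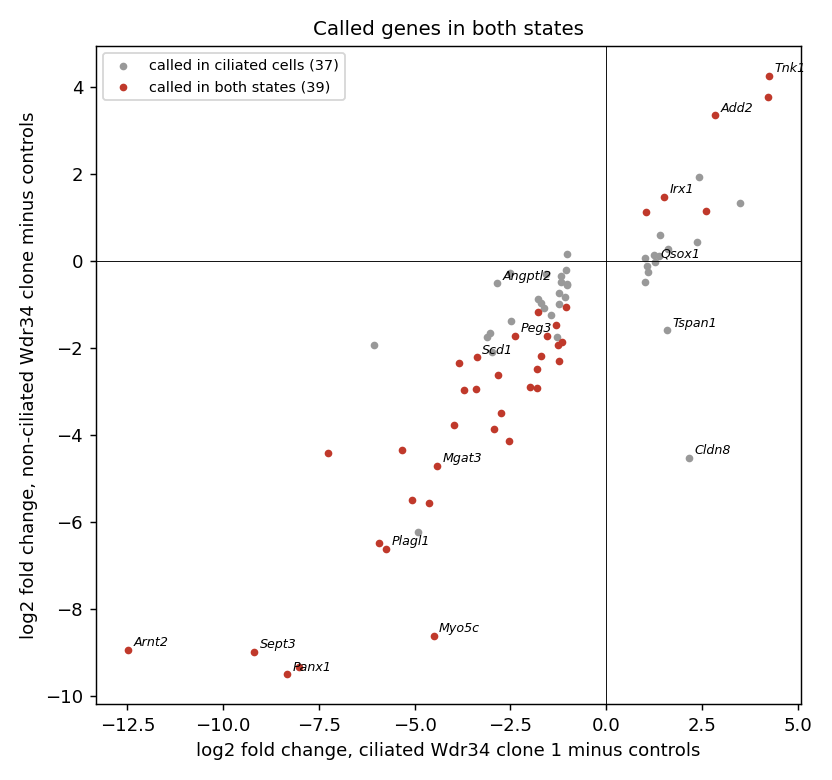
Log2 fold change of the called genes of ciliated clone 1 on the x axis and of the non-ciliated Wdr34 clone against its own controls on the y axis, 1 point a gene. Genes with no count in a Wdr34 clone stand at fitted values that are no measure of size. Of 76 genes tested in both, 69 have the same sign and 39 are called in both.

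The sequence around the annotated start (250 bases before to 50 after it) was available for 17 of the 27 higher genes, 45 of the 57 lower genes and 9839 of the 12380 tested genes. Their median GC content was 59.0%, 62.3% and 61.3%. At least 15 CG pairs were present in 41.2% of the higher, 62.2% of the lower and 72.6% of all tested genes, and the median ratio of observed to expected CG pairs was 0.46, 0.65 and 0.78. These shares are a description of the genes that matched and no test was made of them.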

How the data were processed

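RNA was extracted with an RNeasy kit, and SMARTER mRNA-Seq libraries were sequenced as paired-end reads. The authors used Rsubread on GRCm38/mm10 and featureCounts in R 3.4.4, with DESeq2 1.18.1 for their tests. The files that the authors deposited hold raw counts for each gene symbol, with no scaling for depth. The strand setting and the handling of reads with several matches are not given in the sources used here, so overlapping genes and near-identical copies are uncertain. Of 24421 symbols, 24300 (99.5%) matched a RefSeq gene of GRCm38.p6. No pair among 190 pairs of the 20 libraries was identical.

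Counts were tested with edgeR 4.0.16 in R 4.3.3 (filterByExpr, TMM, estimateDisp, glmQLFit and glmQLFTest, 2-sided, Benjamini-Hochberg adjustment over all genes tested). Calls needed an adjusted p under 0.05 and a change of 1 or more on the log2 scale in either direction, and SE is the log2 fold change divided by the square root of F. CPM values are TMM-scaled. An edgeR fit was tried on simulated counts with no spread between clones, so the trial cannot show how differences between clones affect the calls. Named genes were called genes outside the paper's text with a mean of at least 1 CPM in the higher group and no overlap (the 15 largest per direction), every called list member, neighbouring called genes and 4 dynein-2 genes. Members and lists were chosen with earlier results of these data known. Alternatives were DESeq2 1.42.0, voomLmFit (limma 3.58.1, edgeR), RLE size factors, other filters, summed libraries, a replicate block and leaving out clones or libraries. The same-numbered libraries were checked for pairing. Single values of 2 genes of the sterol and fatty acid list are not reported here.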

Additional observations from a re-analysis of the deposited data

Results flagged for a closer look

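In groups of 4 libraries, 25 of 270 had 1 library far from the others, by Dixon's 95% limit on the gap between the extreme library and its nearest neighbour as a share of the range of the group. Chance gives about 1 in 20. For the total counts of control G7, whose replicate 4 was the deepest, the gap was 0.959 of the range. In the same library it was 0.84 for Wdr60, 0.968 for Dync2h1 and 0.879 for Thbs3. Libraries of 1 clone were also compared in pairs by the chi-square of their counts per degree of freedom. It was highest in pairs with G7 replicate 4 (43.9 to 68.8) and with A4 replicate 1 (27.6 to 58.6), and 2.74 to 6.77 within clone 1. Leaving out A4 replicate 1 gave 34 higher and 68 lower genes.

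Among clone 1 libraries the gap was 0.885 for Hpse and 0.873 for Plagl1, both in replicate 4, 0.886 for Ankrd33b in replicate 3 and 1.0 for Lrfn1 in replicate 2, which held the single count of that gene. In control H12 replicate 1 it was 0.835 for Cldn8, 0.861 for Irx1, 0.892 for Mir7-1, 0.878 for Zan and 0.837 for Ankrd33b. It was 1.0 for Ephx4 in H12 replicate 3 and A4 replicate 4, for Il15 in D8 replicate 1 and for Hpn in G7 replicate 1. In D8 it was 0.848 for Dync2li1 and 0.902 for Rab6b (replicate 2), 0.87 for Peg3 (replicate 1) and 0.872 for Hcn2 (replicate 4). In A4 it was 0.933 for 8430408G22Rik (replicate 2), 0.831 for Zfp608 and 0.85 for Rab6b (replicate 3), and 0.889 for Hpse (replicate 4).

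For 6 named genes the effect in ciliated clone 1 and that in the non-ciliated Wdr34 clone differed by the edgeR interaction term, adjusted over 12731 genes. The difference (log2, ciliated minus non-ciliated) was 6.71 for Cldn8 (adjusted p = 0.032), 5.63 for 8430408G22Rik (0.00431), 1.3 for Qsox1 (0.0152), 1.19 for Zfp608 (0.0304), -2.23 for Zan (0.0429) and -2.32 for Angptl2 (0.0362). For Cldn8 and 8430408G22Rik these are fitted values that are no measure of size, since the non-ciliated Wdr34 libraries had 0 to 0.0631 CPM of each, against 0 to 2.84 and 0.0496 to 0.579 CPM in the non-ciliated controls. State, culture and clone cannot be told apart in this difference.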

How the results depend on the processing

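The counts of 27 higher and 57 lower genes depended on the test. DESeq2 gave 50 higher and 191 lower genes, and an adjusted p alone gave 116 and 156. A filter of at least 10 counts in every library gave 10 and 28. With the 4 libraries of each clone summed, edgeR called 0 higher and 0 lower genes. In that fit 78 of 13879 tested genes (0.562%) had an unadjusted p under 0.05. voomLmFit with the clone as a block called 1 higher gene (Tnk1) and 0 lower, with 242 of 12380 (1.95%) at an unadjusted p under 0.05. The replicate block gave 16 higher genes and 41 lower. Only 11 of 40 same-numbered pairs correlated above 0.1, so the numbers were not taken to pair libraries.

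Leaving out a control clone gave 100 higher and 119 lower genes without H12, 124 lower without A4, and 63 and 214 without G7. Genes above every control library numbered 271, 513, 449 and 499 without D8, H12, A4 and G7, and genes below numbered 229, 374, 394 and 428. Fewer control libraries have to be exceeded there. Leaving out each library in turn gave 9 to 34 higher and 26 to 68 lower genes, with 9 to 14 higher and 26 to 29 lower when a clone 1 library was left out. The 17 named genes called in each of these fits were Il15, Slc25a45, Chst9 and Qsox1 (higher) and Scd1, Panx1, Plagl1, Mgat3, E2f6, Rab6b, Myo5c, Fuz, Hpse, Nrxn2, Angptl2, Zfp536 and Zscan18 (lower). Leaving out a control library removed the calls of 9 named genes (8430408G22Rik, Cldn8, Fam78b, Far2, Hpn, Il18bp, Mir7-1, Tspan15 and Tspan18), at adjusted p-values of up to 0.0677. Without all of D8, 14 named genes were not called, among them Cldn8, Hpn, Tspan1, Usp29, Jam3, Zan and Sept3. No named gene reversed under any alternative, and 28 of the 84 genes (7 higher, 21 lower) were called in 28 settings, which leave out the summed, voomLmFit and 10-count fits. The 39 genes called in both states ranged from 37 to 49. The cause of these shifts was not tested. Depth limits genes near 1 CPM, where 1 library holds about 15 to 28 counts.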
